A study of Mus musculus with 15 samples.

Results

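The cerebellin genes Cbln1, Cbln2, Cbln3 and Cbln4, the delta glutamate receptor gene Grid1 and the neurexin genes Nrxn2 and Nrxn3 were followed through mouse cerebellar granule neuron precursors and medulloblastoma cells. The 7 genes were taken by name from the 21889 genes of the deposited gene count tables, and 7 of 7 passed the filter on low counts. The 15 libraries of poly(A) RNA fell into 5 groups of 3. Granule neuron precursors came from the embryonic stage E15.5 (genotype label Math1-GFP, a green fluorescent reporter named for the granule lineage factor Atoh1) and from wild type mice at postnatal days 1, 7 and 14 (P1, P7 and P14). Medulloblastoma cells (MB), from a cerebellar tumour that arises in this lineage, carried the label Ptch1 heterozygous, and no age was given. Ptch1 is the receptor that restrains Sonic hedgehog signalling, and the labels do not give the state of its second copy in the tumours. All cells were taken from cerebellum, purified on Percoll density gradients and lysed directly. The genotype label therefore changes together with age between E15.5 and P1, and these cannot be told apart. The labels do not say that replicates came from separate animals or tumours, or whether animals were pooled, so the p-values measure the spread between these samples.

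Cerebellins are secreted proteins related to the complement factor C1q. A neurexin on the presynaptic side binds a cerebellin, which in turn binds a delta receptor on the postsynaptic side, so that the 3 proteins bridge the synaptic cleft. In the cerebellum this bridge is best known from the synapses that granule neurons, through their parallel fibres, make on Purkinje cells: the granule neuron supplies neurexin and Cbln1, and the Purkinje cell supplies the receptor. Neurexins are made in a long α form and a short β form, which start at different promoters of the same gene and share the membrane anchor.

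Totals of 12597472 to 43443132 counts in genes per library lay behind the values, and 15818 to 17286 genes had a count. Levels are given as CPM, the counts of a gene scaled to the library total after adjustment by the trimmed mean of M-values (TMM), with the SD over n = 3 libraries. A difference was called when its Benjamini-Hochberg adjusted p (FDR, over 15259 genes) from edgeR's quasi-likelihood test was under 0.05. Granule lineage markers such as Atoh1 and Zic1 were present in each library, with 8 of 8 markers at 1 CPM or more and a summed level of 3012 to 7434 CPM. Markers of other cells were present too: the summed oligodendrocyte markers ran from 51.2 to 57.5 CPM at E15.5 up to 6321 to 6873 CPM at P14, and the P1 libraries ranged from 142 to 3912 CPM. Summed choroid plexus markers stood at 25.2 to 279 CPM at E15.5, 5055 to 8406 at P14 and 10168 in P1 replicate 2. Astroglia markers stood at 82.1 to 176 CPM at E15.5 and 2872 to 3814 at P14. Endothelium markers stood at 3.92 to 20.7 and 488 to 516 CPM at these ages. Sums for other neurons are given below. In bulk libraries of this kind, fewer cells of a type and less RNA per cell cannot be told apart. The library labelled P1 replicate 3 stood apart from the other P1 libraries in several of the genes described here, and values without it are given where they change a result.

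Of the 7 genes, 3 have a promoter entry in RefSeq (GRCm38.p6), covering 5 start sites. The windows below hold up to 250 bases before a start, for the cerebellin that is highest at P14 (Cbln3), the cerebellin that is highest in MB (Cbln4) and the start of the short form of Nrxn3, and they are shown because the results below turn on these 2 cerebellins and on the reads at that start. The capitals mark CpG dinucleotides, and sequences run 5′ to 3′ on the gene's strand. The Cbln3 window is chr14:55884393-55884506 on the minus strand and is shown over the 114 bases that overlap no annotated exon. The Cbln4 window is chr2:172043467-172043716 on the minus strand. The Nrxn3 window, at the β start, is chr12:89812233-89812482 on the plus strand.
Cbln3: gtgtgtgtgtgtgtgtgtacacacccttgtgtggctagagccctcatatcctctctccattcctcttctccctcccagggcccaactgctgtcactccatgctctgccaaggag
Cbln4: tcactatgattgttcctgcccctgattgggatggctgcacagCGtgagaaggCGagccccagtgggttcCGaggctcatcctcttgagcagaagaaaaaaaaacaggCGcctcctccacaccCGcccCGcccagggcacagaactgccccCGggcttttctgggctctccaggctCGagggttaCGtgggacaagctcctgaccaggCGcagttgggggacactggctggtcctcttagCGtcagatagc
Nrxn3: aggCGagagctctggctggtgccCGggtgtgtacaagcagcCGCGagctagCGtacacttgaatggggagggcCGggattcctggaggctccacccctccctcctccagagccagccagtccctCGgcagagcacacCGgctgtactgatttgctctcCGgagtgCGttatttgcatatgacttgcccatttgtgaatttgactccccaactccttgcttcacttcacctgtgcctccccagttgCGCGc
The 3 windows differ in CpG content. The printed part of the Cbln3 window holds 0 CpG and its full 250 bases hold 2, while the Cbln4 window holds 11 and the Nrxn3 β window holds 12. The median over 32851 RefSeq promoter windows of that length is 6. As many CpG or more were found in 35.6% of windows for Cbln4 and in 33.5% for Nrxn3 β, and as few or fewer were found in 29.0% for Cbln3. The E-box CANNTG, the core that Atoh1 and other basic helix-loop-helix factors recognise, was searched on both strands and is its own reverse complement in form. It occurred in 66.2% of all windows, with 1 match in the Cbln3 window, 1 in the Cbln4 window and 5 in the Nrxn3 β window. The Gli core TGGGTGGTC occurred in 0.225% of windows and the nuclear factor I palindrome named for TTGGC and GCCAA occurred in 0.0365%. Neither had a match in the windows of these 5 starts. The shorter TTGGCA, which overlaps the first letters of that palindrome, occurred in 12.3% of windows, with 1 match for Cbln3 and 1 in the window of the most upstream Nrxn3 start. These matches describe letters only.

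**Figure D1:**
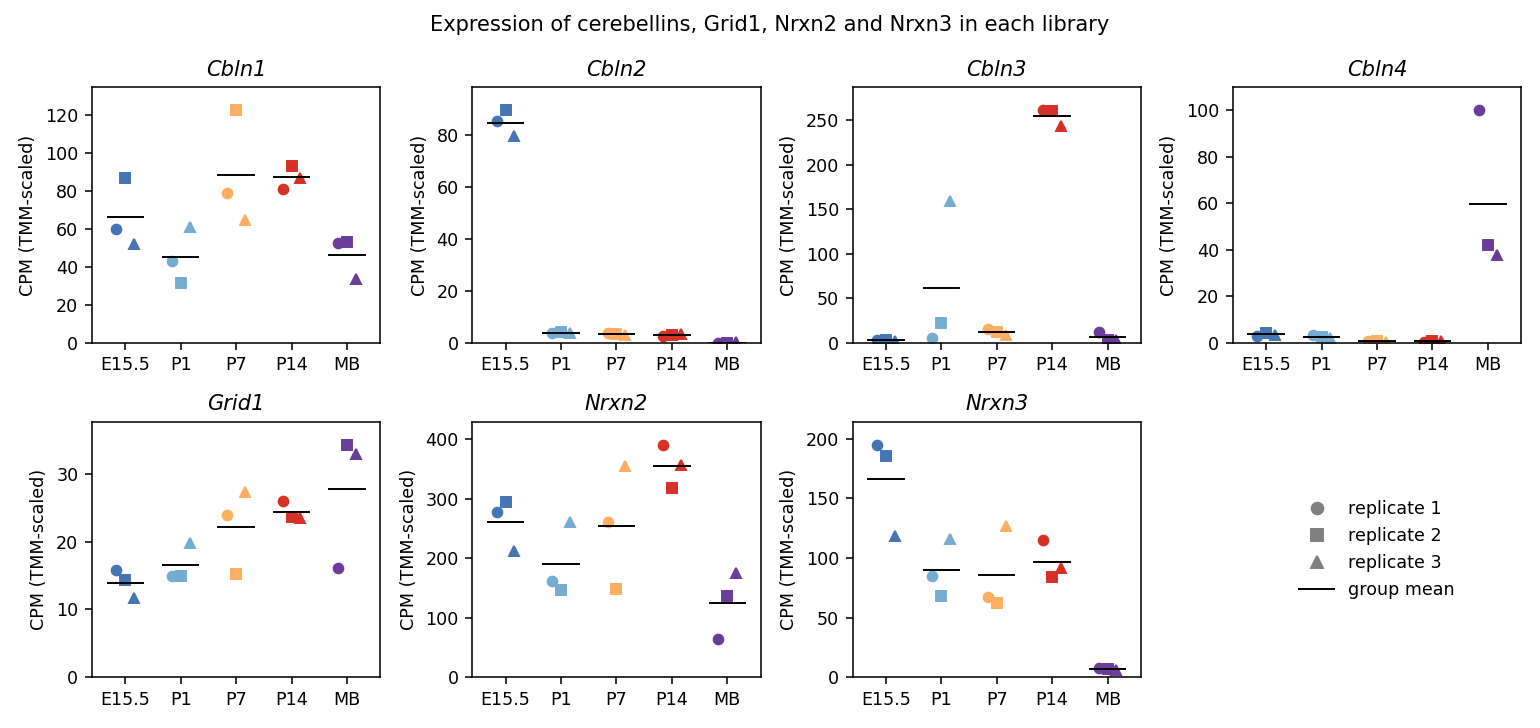
TMM-scaled CPM of the 7 genes in each of the 15 libraries, by group, with the group mean as a line and a linear axis from 0 in each panel. Cbln2 stands at 79.5 to 89.3 CPM in the E15.5 libraries only, Cbln3 at 243 to 261 CPM at P14 and Cbln4 at 37.5 to 99.8 CPM in MB, and the library labelled P1 replicate 3 stands apart for Cbln3.

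Each of the cerebellins had its own place in the series. Cbln2 was highest at E15.5, Cbln3 at P14 and Cbln4 in MB, while Cbln1 was found in all 5 groups at levels that differed less. Compared per length, as CPM per kilobase of the transcript counts, Cbln1 was the highest of the 7 genes in each group, at 73.2 ± 17.3 in MB and 174 ± 49.6 at P7 (SD, n = 3). Between 91.8% and 97.8% of the genes tested lay below it in a group. Its transcript counts include reads shared with an overlapping model, described next. From the gene counts per kilobase it was the highest of the 7 in no group, at 28.3 ± 7.77 at E15.5, where Nrxn2 stood at 39.7 ± 6.67, and at 37.2 ± 2.62 at P14, where Cbln3 stood at 53.9 ± 2.12. On the scale of transcript counts, Cbln3 reached 54.3 ± 2.14 and Nrxn2 48.6 ± 4.62 at P14, Nrxn3 20.8 ± 5.17 and Cbln2 34.6 ± 1.87 at E15.5, Cbln4 21.1 ± 12.3 in MB, and Grid1 did not exceed 4.77 ± 1.72, its MB level.

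Cbln1 (ENSMUSG00000031654; mm9 chromosome 8, 89992761 to 89996508, minus strand, 3 exons) encodes the founding cerebellin, which granule neurons release onto Purkinje cells. It read 60.0, 86.8 and 52.1 CPM in E15.5 replicates 1 to 3, 43.1, 31.7 and 61.0 in P1, and 79.0, 123 and 64.6 in P7. It read 81.2, 93.5 and 87.1 CPM in P14 and 52.5, 53.0 and 33.8 in MB. The P7 and P14 libraries all lay above those of P1 and of MB, and the E15.5 libraries overlapped P1, P7, P14 and MB. The means ran P7 (88.8 ± 30.2), P14 (87.3 ± 6.15), E15.5 (66.3 ± 18.2), MB (46.4 ± 11) and P1 (45.3 ± 14.8), and no neighbours in this order differed beyond their spread. Differences among the 4 ages were called (edgeR FDR = 0.0301), and this call was lost without P1 replicate 1 (0.0910), P1 replicate 2 (0.123), P14 replicate 2 (0.0567) or P14 replicate 3 (0.0527). The P7 against P1 difference of 0.97 on the log2 scale (SE 0.29, edgeR FDR = 0.0740) and the P14 against P1 difference of 0.95 (SE 0.29, edgeR FDR = 0.0507) did not pass. Without P1 replicate 3 they were 1.25 and 1.22 and passed, with edgeR FDR of 0.0309 and 0.0133, and the P1 against E15.5 difference of -0.55 (edgeR FDR = 0.127) became -0.83 (0.0421). In MB, Cbln1 fell by 0.93 (log2, SE 0.29, edgeR FDR = 0.0187) against P7 and by 0.91 (SE 0.28, edgeR FDR = 0.0150) against P14. The first call was lost without P7 replicate 2 (-0.63, 0.110) or MB replicate 3 (-0.75, 0.0788), with MB and P7 fitted alone (-0.91, 0.0554) and within 1 counting set, where MB has 1 library (-0.71, 0.209), and the second without MB replicate 3 (-0.73, 0.0663). The 2 counting sets, of 6 and 9 libraries, were set apart by the gene Tsnax alone. The gene table held 0% to 0.273% of its transcript reads in the 6 libraries and 92.4% to 94.8% in the 9. No label states a difference in counting, and its cause was not tested. All P7 libraries were among the 6, and all P1 and P14 libraries were among the 9. Age and counting set therefore cannot be told apart in P7 against P1 or in P14 against P7. The Cbln3 rise from P7 to P14 and the Cbln4 fall from P1 to P7, given below, share this limit.

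The gene table held only 18.0% to 27.2% of the reads that the transcript table gave over Cbln1, in libraries of both counting sets. An unnamed transcript model (ENSMUST00000163930) overlaps it on the same strand, at mm9 chromosome 8, 89992768 to 89994967. Its part in the lower gene count was not tested. The share was 18.0% to 22.0% at E15.5 and 27.0% to 27.2% in MB. For Cbln1 the MB against E15.5 difference was -0.51 (edgeR FDR = 0.147) from the gene table and -0.94 (0.0115) from the transcript table, so that the lower level of MB passed in the second only. The other members' counts in the 2 tables differed by less, and their calls are given from the gene table.

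Cbln2 (ENSMUSG00000024647; mm9 chromosome 18, 86880502 to 86887675, plus strand, 5 exons in its main transcript) is a cerebellin made by neurons of many brain regions. Its level was 85.3, 89.3 and 79.5 CPM in the E15.5 libraries and 3.60, 4.30 and 3.62 in P1. It was 3.83, 3.50 and 2.97 CPM in P7, 2.76, 3.13 and 3.38 in P14, and 0, 0.0488 and 0.0800 in MB, from counts of 0, 2 and 2. All E15.5 libraries lay above all others, and all MB libraries lay below all others. In MB replicate 1 a count of 0 allows up to 3 counts, or 0.119 CPM, and this limit covers counting error only. Cbln2 fell by 4.46 from E15.5 to P1 (log2, SE 0.26, edgeR FDR = 8.69e-08), from 84.7 ± 4.98 to 3.84 ± 0.399 CPM. It did not change detectably from P1 to P7 (-0.16, edgeR FDR = 0.757) or from P7 to P14 (-0.15, edgeR FDR = 0.705). Against MB, with 4 counts over its 3 libraries, the ratio of scaled counts was 79.2 for P7 (95% exact counting interval 30.6 to 292), 70.5 for P14 (27.2 to 260) and 1890 for E15.5 (738 to 6938). These intervals also cover counting error only. The MB differences were called against P7 (edgeR FDR = 2.82e-08) and P14 (3.20e-08), and their fitted size depends on the prior count.

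Markers of other neurons also differed between the groups, and their sums did not all run as Cbln2 did. The 4 summed GABAergic interneuron markers (Gad1, Gad2, Slc32a1 and Pax2) stood at 371 to 468 CPM at E15.5, 142 to 197 at P1, 166 to 254 at P7, 81.5 to 126 at P14 and 1.48 to 2.93 in MB, where Pax2 had a count of 0 in replicates 1 and 3. This sum was highest at E15.5 and lowest in MB, as was Cbln2. The 5 summed markers of cerebellar nuclei and unipolar brush cells stood at 164 to 412 CPM at E15.5 and at 39.0 to 99.7 in the other groups, with MB, P7 and P14 overlapping. The 6 summed Purkinje cell markers stood at 138 to 226 CPM at E15.5, 184 to 300 at P1, 219 to 749 at P7, 157 to 290 at P14 and 25.7 to 41.2 in MB, and were not highest at E15.5. The summed catecholaminergic markers stood at 15.03 to 21.5 CPM at E15.5, 4.27 to 7.65 at P1, P7 and P14 and 15.7 to 25.9 in MB. The part of such cells in the levels of Cbln2 and of Nrxn3, described further on, was not tested.

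Cbln3 (ENSMUSG00000040380; mm9 chromosome 14, 56497757 to 56503093, minus strand, 3 exons) encodes a cerebellin of mature granule neurons that is secreted together with Cbln1. Its level was 2.75, 3.42 and 2.42 CPM in the E15.5 libraries, 5.45, 21.6 and 159 in P1 and 15.1, 11.6 and 9.01 in P7. It was 261, 260 and 243 CPM in P14 and 11.5, 3.25 and 3.48 in MB. The P14 libraries lay above all others, E15.5 lay below all postnatal libraries, and MB overlapped E15.5, P1 and P7. Within P1 the 3 libraries covered most of the range seen over the whole series. Cbln3 rose by 4.46 from E15.5 to P1 (log2, SE 0.91, edgeR FDR = 0.00112) and by 4.42 from P7 to P14 (SE 0.88, edgeR FDR = 0.0103), and in MB it fell by 5.40 against P14 (SE 0.93, edgeR FDR = 2.02e-04). Without P1 replicate 3 the first rise was 2.27 (edgeR FDR = 0.00509), and within 1 counting set, where E15.5 has a single library that is assumed to vary like the others, it was 4.18 and not called (0.0949). The second was lost without P7 replicate 2 (4.40, 0.0652), where the rises called over all genes went from 886 to 86. P14 against P1 did not pass (2.04, SE 0.79, edgeR FDR = 0.112), but was 4.23 (5.51e-04) without P1 replicate 3.

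The order of the Cbln3 means was P14 (255 ± 10.02), P1 (62.0 ± 84.3), P7 (11.9 ± 3.06), MB (6.08 ± 4.70) and E15.5 (2.86 ± 0.514). No neighbours in it passed the test, although the P14 libraries did not overlap those of P1. P7 against P1 was -2.38 (edgeR FDR = 0.116), and -0.18 (0.888) without P1 replicate 3 but -2.92 (0.0363) without P1 replicate 1. Gabra6, a GABA receptor subunit that marks mature granule neurons, moved with Cbln3: it read 0 in each E15.5 library, 1.12, 12.5 and 102 CPM in P1, 10.3, 9.49 and 2.54 in P7, 161, 202 and 164 in P14, and 1.11, 0.220 and 0.440 in MB. The 6 summed markers of mature granule neurons, which include Gabra6, stood at 1008 CPM in P1 replicate 3. They stood at 383 and 462 CPM in the other P1 libraries, 441 to 467 at P7 and 1282 to 1331 at P14. At E15.5 the sum was 487 to 775 CPM and in MB 144 to 258, so it was lowest in MB and not at E15.5. Syt1, another of these markers, stood at 402 ± 103 CPM at E15.5 and 193 ± 21.2 at P14. The oligodendrocyte markers had their P1 maximum, 3912 CPM, in P1 replicate 3. The part of these cells in the level of Cbln3 was not tested.

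Cbln4 (ENSMUSG00000067578; mm9 chromosome 2, 171861733 to 171868966, minus strand, 3 exons) encodes a cerebellin that binds neurexins and has been linked to inhibitory synapses. It read 3.05, 4.18 and 3.39 CPM in the E15.5 libraries, 3.26, 2.44 and 1.96 in P1 and 0.584, 0.938 and 0.385 in P7. It read 0.506, 0.844 and 0.635 CPM in P14 and 99.8, 41.9 and 37.5 in MB. All MB libraries lay above all others, all E15.5 and P1 libraries lay above those of P7 and P14, and E15.5 and P1 overlapped. Cbln4 was higher in MB by 6.52 against P7 (log2, SE 0.47, edgeR FDR = 1.02e-07) and by 6.48 against P14 (SE 0.47, edgeR FDR = 8.70e-08). The ratio of scaled counts of MB to P7, from 5169 and 64 counts, was 85.4 (95% exact counting interval 66.8 to 111). That interval covers counting error only and not the spread between libraries. Against E15.5, the highest of the 4 ages, MB was higher by 4.09 (SE 0.41, edgeR FDR = 1.17e-06). At the low level of the precursors, Cbln4 fell by 1.97 from P1 to P7 (SE 0.42, edgeR FDR = 0.0233) and by 1.93 from P1 to P14 (SE 0.42, edgeR FDR = 0.0143). Neither fall passed with 1 of the compared libraries other than P1 replicate 3 removed, giving log2 values of -2.36 to -1.72 and edgeR FDR of 0.0553 to 0.112. In those fits the falls called over all genes also dropped, from 266 to between 8 and 236 for P1 to P7. For P1 to P14 they dropped from 810 to between 145 and 248.

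In the 6 main comparisons, the members that rose were Cbln3 and Cbln4. From E15.5 to P1, 1 member rose (Cbln3) and 2 fell (Cbln2 and Nrxn3), where 25.4% of all tested genes rose and 20.9% fell, or 46.3% together. From P1 to P7, 1 fell (Cbln4) and 0 rose, where 1.40% rose and 1.74% fell (3.15% together). At an unadjusted edgeR p under 0.05, Cbln1 was higher, and Cbln3 was lower beside Cbln4. DESeq2 called Cbln1 (DESeq2 FDR = 0.0310), among 511 genes that it called higher. From P7 to P14, 1 rose (Cbln3) and 0 fell, where 5.81% rose and 4.51% fell (10.3%). Over P1 to P14, 1 fell (Cbln4) and 0 rose, where 3.63% rose and 5.31% fell (8.94%). Cbln1, Cbln3 and Nrxn2 were higher at an unadjusted edgeR p under 0.05 in that comparison. DESeq2 called Cbln1 (DESeq2 FDR = 0.0194), among 1195 genes that it called higher. The share of all genes at an unadjusted p under 0.05 is not given here for either comparison. In MB, 1 member rose (Cbln4) and 4 fell against P7 (Cbln1, Cbln2, Nrxn2 and Nrxn3), where 13.7% of all genes rose and 20.7% fell (34.5%). Against P14, 1 rose (Cbln4) and 5 fell, the same 4 and Cbln3, where 22.9% rose and 27.2% fell (50.0%). The MB comparisons share their MB libraries. Any difference over the 4 ages was called for 5 of 7 members, where it was called for 55.7% of genes, and these shares are not far apart.

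**Figure D2:**
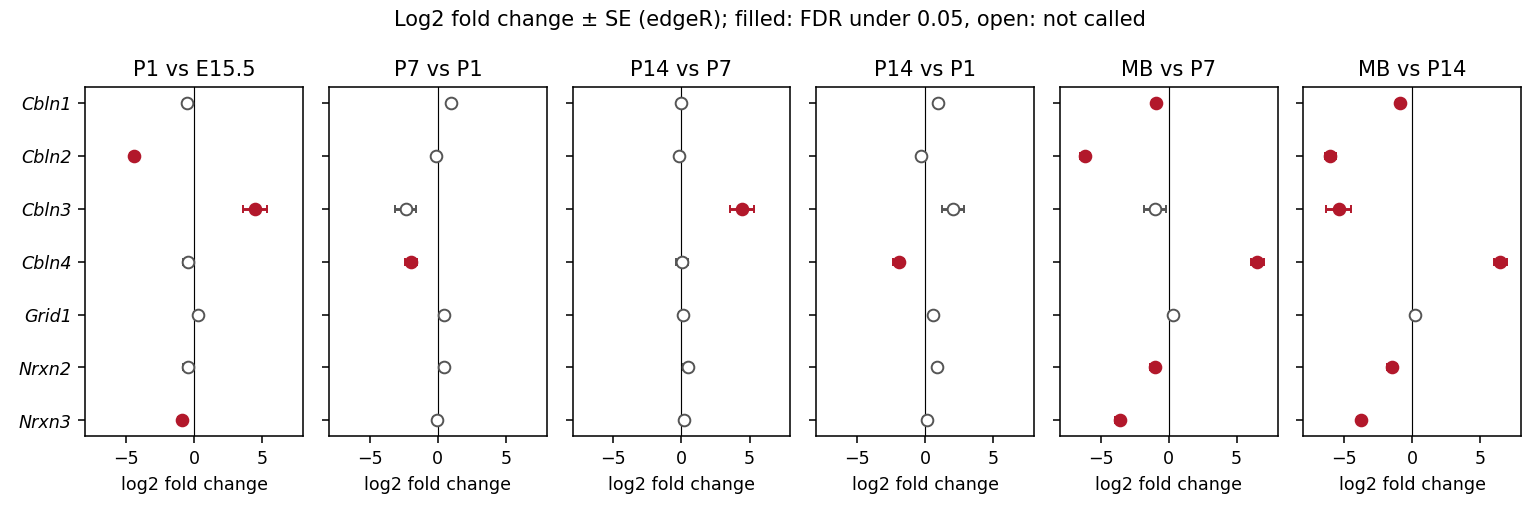
Fitted log2 fold change with its SE for the 7 genes in 6 comparisons, with filled points for an edgeR FDR under 0.05 and open points for the rest. Cbln4 lies at 6.52 and 6.48 in MB against P7 and P14, where Cbln2 lies at -6.16 and -6.01 and Nrxn3 at -3.59 and -3.77, and Grid1 is open in all 6 panels.

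Nrxn3 (ENSMUSG00000066392; mm9 chromosome 12, 90032948 to 91573375, plus strand, 20 exons in its main transcript) and Nrxn2 (ENSMUSG00000033768; mm9 chromosome 19, 6418804 to 6533217, plus strand, 23 exons) encode presynaptic receptors of cerebellins. Nrxn3 read 195, 185 and 118 CPM in the E15.5 libraries, 85.3, 67.8 and 116 in P1 and 67.5, 62.6 and 127 in P7. It read 115, 84.0 and 91.3 CPM in P14 and 8.13, 7.11 and 6.04 in MB. The MB libraries lay below all others, the 3 postnatal ages overlapped, and E15.5 overlapped P7 alone among them. Nrxn3 fell by 3.59 in MB against P7 (log2, SE 0.31, edgeR FDR = 6.73e-07) and fell by 3.77 against P14 (SE 0.32, edgeR FDR = 3.10e-07), from 85.7 ± 35.9 and 96.9 ± 16.5 to 7.09 ± 1.04 CPM. It fell by 0.89 from E15.5 to P1 (SE 0.28, edgeR FDR = 0.0178). That call was lost without E15.5 replicate 1 (-0.76, 0.0664), E15.5 replicate 2 (-0.81, 0.0510), P1 replicate 1 (-0.86, 0.0519) or P1 replicate 2 (-0.72, 0.0838), and in the table of start site models (-0.42, 0.295). In the order of means, E15.5 (166 ± 41.5) stood above P14 (-0.78 for P14 against E15.5, edgeR FDR = 0.0311), a call lost without E15.5 replicate 1 or 2 or P14 replicate 2 or 3 (-0.73 to -0.65, edgeR FDR of 0.0832 to 0.105) and turned to 0.14 in the table of start site models. MB stood below P7, and P14, P1 (89.5 ± 24.2) and P7 did not differ beyond their spread.

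Nrxn2 carried the most gene counts of the 7 genes in each group, on a scale that is not per length, while in the transcript table Cbln1 carried more, at 366 ± 10.7 against 320 ± 30.5 CPM at P14. Nrxn2 read 277, 295 and 212 CPM in the E15.5 libraries, 162, 146 and 261 in P1 and 261, 147 and 355 in P7. It read 390, 318 and 356 CPM in P14 and 64.5, 136 and 175 in MB. The P14 libraries lay above those of E15.5, P1 and MB and overlapped P7, and MB overlapped P1 and P7. Nrxn2 fell by 1.503 on the log2 scale in MB against P14 (SE 0.35, edgeR FDR = 0.00245), at 125 ± 56.0 against 355 ± 35.6 CPM, and against P7 the difference was -1.02 (SE 0.35, edgeR FDR = 0.0334) with libraries that overlapped. The P7 call was lost without P7 replicate 1 (-0.95, 0.0877), P7 replicate 3 (-0.71, 0.163), MB replicate 1 (-0.71, 0.0996) or MB replicate 2 (-1.09, 0.0609). It was also lost with MB and P7 fitted alone (-0.99, 0.132). No difference over the 4 ages was called (edgeR FDR = 0.167), although P14 against P1, at 0.90 (edgeR FDR = 0.110), was 1.20 and passed (0.0442) without P1 replicate 3. The order of the means was P14, E15.5 (261 ± 44.0), P7 (254 ± 104), P1 (190 ± 62.2) and MB. No neighbours in it passed the test, although the P14 libraries did not overlap those of E15.5.

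The 2 neurexins were then described by form, since α and β neurexins differ in what they bind. For Nrxn2 the transcript table holds a long α transcript (ENSMUST00000077182) and a β transcript (ENSMUST00000113458) that shares its last exons, and a read over both counts for each. The excess of α over β counts, as a share of the α count, was 27.9%, 30.1% and 31.9% in the E15.5 libraries, 18.0%, 18.7% and 13.5% in P1, and 20.2%, 16.8% and 12.4% in P7. It was 12.5%, 10.9% and 12.9% in P14 and 48.4%, 29.2% and 31.0% in MB. Each E15.5 and MB library lay above each library of the 3 postnatal ages, and E15.5 and MB overlapped. Reads of the first β exon lower this excess, so it is not the share of α molecules. Over 89 other genes with a long and a nested short transcript ending alike, the median excess was 41.3% to 47.4% in the 15 libraries, without that separation of groups. A median can stay level while single genes shift, and how many of the 89 separate the groups as Nrxn2 does is not given.

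For Nrxn3 the table of start site models holds a β model (ENSMUST00000110130), matched by its ID to GENCODE vM21 on GRCm38, where its 7 exons begin with a first exon of 1158 bases. That exon starts at chromosome 12, 89812483, the base after the window printed above. Its count was 38.2%, 46.0% and 40.6% of the gene count in the E15.5 libraries, 51.8%, 54.0% and 67.2% in P1, and 55.9%, 60.0% and 62.7% in P7. It was 78.1%, 83.0% and 82.0% in P14 and 55.6%, 62.5% and 68.2% in MB. The E15.5 libraries lay below all others, the P14 libraries lay above all others, and P1, P7 and MB overlapped. The β model also holds exons that α transcripts use, and the gene and start site tables were counted separately, so the value is a ratio of 2 counts and not a share of β molecules. With 3 libraries a group, an exact two-sided permutation test cannot give a p below 0.1, and these ratios were not tested. The MB ratios rest on gene counts of 151 to 291.

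**Figure D3:**
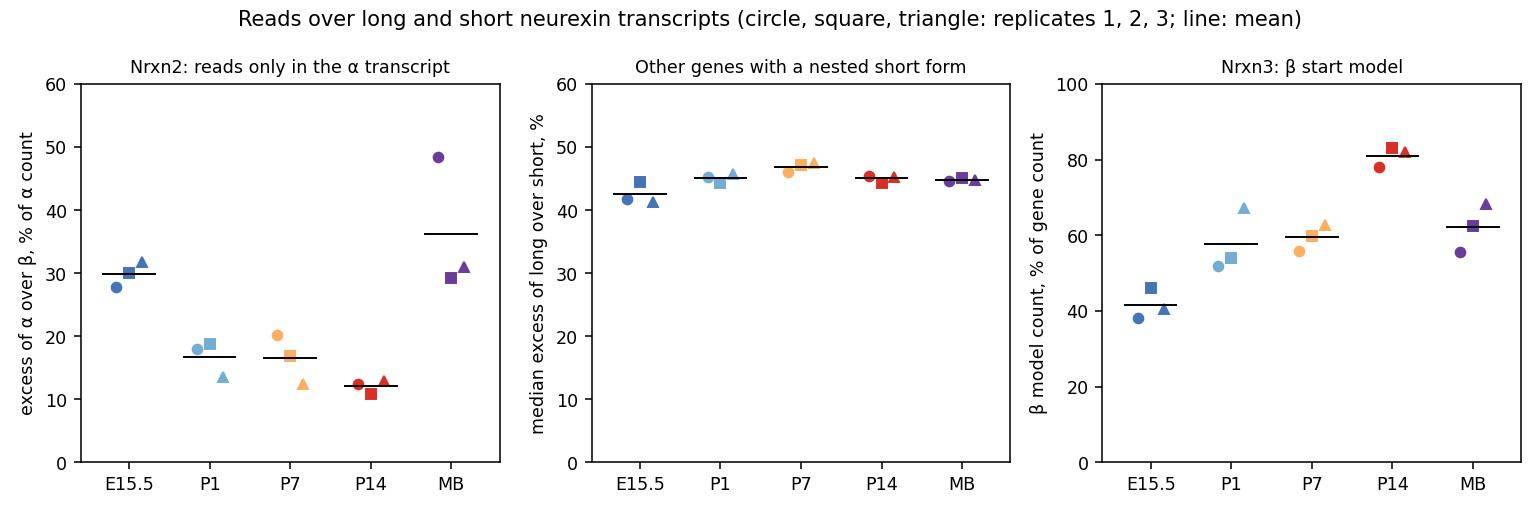
Excess of the long α over the short β transcript of Nrxn2 in percent of the α count, the median of the same measure over 89 other genes, and the β start model of Nrxn3 in percent of its gene count, for each library by group, with the group mean as a line. The Nrxn2 excess is 10.9% to 20.2% in the postnatal libraries and 27.9% to 48.4% at E15.5 and in MB, and the Nrxn3 ratio is 38.2% to 46.0% at E15.5 and 78.1% to 83.0% at P14.

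Grid1 (ENSMUSG00000041078; mm9 chromosome 14, 35633011 to 36396565, plus strand, 16 exons) encodes the delta receptor that is expressed widely in the brain and that cerebellins bind on the postsynaptic side. It read 15.8, 14.3 and 11.7 CPM in the E15.5 libraries, 14.9, 14.9 and 19.7 in P1 and 23.9, 15.3 and 27.3 in P7. It read 25.9, 23.6 and 23.4 CPM in P14 and 16.1, 34.2 and 32.9 in MB. The P14 libraries lay above those of E15.5 and P1, and MB replicate 1 lay near the E15.5 libraries while the other MB libraries lay above all precursors. Grid1 was not called in any of the 6 main comparisons or over the 4 ages (edgeR FDR = 0.0708, and 0.0213 with the 4 ages fitted alone). In the comparisons that span the series it was higher at P14 than at E15.5 by 0.80 (log2, SE 0.28, edgeR FDR = 0.0267), where 50.9% of all genes were called and 26.7% were higher. It was higher in MB than at E15.5 by 0.996 (SE 0.28, edgeR FDR = 0.00845), where 50.1% were called and 26.0% were higher. In MB against P1, where 38.7% of all genes were called, its difference of 0.75 (edgeR FDR = 0.0462) came with libraries that overlapped, and the call was lost without P1 replicate 1 or 2 or MB replicate 2 or 3 (edgeR FDR of 0.124 to 0.175), with no filter (0.0501) and with the 2 groups alone (0.143). The call of P14 against E15.5 was lost when any E15.5 library but replicate 1, or any P14 library, was left out (edgeR FDR of 0.0523 to 0.125). The order of the means was MB (27.7 ± 10.1), P14 (24.3 ± 1.40), P7 (22.2 ± 6.20), P1 (16.5 ± 2.79) and E15.5 (13.9 ± 2.09), and no neighbours in it differed beyond their spread.

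The genes most like each member were found by Pearson's r over log2 CPM of the 15 libraries among 13444 genes, as a description, since libraries share their group, depth and cell makeup. Cbln2 was most like Syt5 (r = 0.99), a synaptotagmin, and Unc5a (0.98), a netrin receptor. Syt5 stood at 93.7 ± 26.1 CPM at E15.5, 10.5 ± 1.15 at P1 and 1.14 ± 0.509 in MB. Nrxn3 was most like Megf11 and Syt1 (0.99 each), the second a calcium sensor of vesicle release. Cbln3 was most like Phkg1 (0.98), a phosphorylase kinase subunit, and Hapln2 (0.98), a link protein of myelinated axons, which stood at 12.6 ± 4.31 CPM at P14 and 0.0424 ± 0.0418 at E15.5. Cbln4 was most like Golt1b and Zfp239 (0.97 each). Golt1b stood at 112 ± 2.76 CPM in MB and at 43.6 ± 8.38 at P7, a much narrower range than that of Cbln4. Grid1 was most like Epop (0.95) and Dlgap3 (0.94), Nrxn2 was most like Cdk5r1 and Vgf (0.96 each), and Cbln1 was most like Habp4 (0.93) and Rgs7 (0.87).

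The genes around this bridge were taken from 3 lists of 38 genes, of which 37 were tested: 15 postsynaptic partners of neurexins, 11 secreted C1q-like proteins with their receptors and neurexophilins, and 12 intracellular partners and splicing factors. From P1 to P14, 5 of 37 rose and 0 fell (median log2 change 0.47, against 0.0052 over all genes tested), where 3.63% of all genes rose and 5.31% fell. From P1 to P7, 2 rose and 0 fell, where 1.40% rose and 1.74% fell. In MB against P7, 4 rose and 14 fell (median -0.39, against 0.02 over all genes), where 13.7% rose and 20.7% fell. Against P14, 9 rose and 15 fell (median -0.64, against 0.01), where 22.9% rose and 27.2% fell. From E15.5 to P1, 4 rose and 12 fell (median -0.20, against 0.03), where 25.4% rose and 20.9% fell. From P7 to P14, 1 rose and 2 fell, where 5.81% rose and 4.51% fell.

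The counts in MB against P7, where 13.7% of all genes rose and 20.7% fell, are given by list. Of the 15 postsynaptic partners, 0 rose and 7 fell (median log2 change -0.73), and the largest fall was that of Clstn2, a calsyntenin, at -4.45 (SE 0.35, edgeR FDR = 2.65e-07), from 10.2 ± 2.81 to 0.472 ± 0.177 CPM. Of the 10 tested C1q-like proteins, receptors and neurexophilins, 4 rose and 0 fell (median 1.05). The largest rise was that of C1ql3, a secreted relative of the cerebellins, at 2.63 (SE 0.43, edgeR FDR = 2.30e-04), from 4.19 ± 0.288 to 26.0 ± 14 CPM, and C1ql1, Nxph1 and Nxph3 were the others. Of the 12 intracellular partners and splicing factors, 0 rose and 7 fell (median -1.22), and the largest fall was that of Shank1, a postsynaptic scaffold, at -3.19 (SE 0.57, edgeR FDR = 4.42e-04), from 107 ± 49.0 to 11.6 ± 7.57 CPM. The difference between the lists was not tested.

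From P1 to P14, the largest called rises, 1 for each list, were those of Lrrtm3, a leucine-rich neurexin ligand (1.48, SE 0.40, edgeR FDR = 0.0343), C1ql1 (1.18, SE 0.32, edgeR FDR = 0.0370) and Lin7b, an adaptor of the neurexin complex (1.11, SE 0.33, edgeR FDR = 0.0475). Lrrtm3 went from 19.7 ± 15.4 to 55.1 ± 3.18 CPM, C1ql1 from 23.6 ± 9.74 to 53.6 ± 7.39 and Lin7b from 2.41 ± 0.752 to 5.22 ± 1.13. Each of the 3 calls was lost when any 1 library of the 2 groups but P1 replicate 3 was left out, with edgeR FDR of 0.0736 to 0.216. In those fits the rises called over all genes also dropped, from 554 to between 2 and 46. The other called rises were those of Car10 (1.37, edgeR FDR = 0.0499) and Adgrb2 (1.13, edgeR FDR = 0.0329), and no gene of the lists fell. Values of Car10 and Adgrb2 under other settings are not given.

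**Figure D4:**
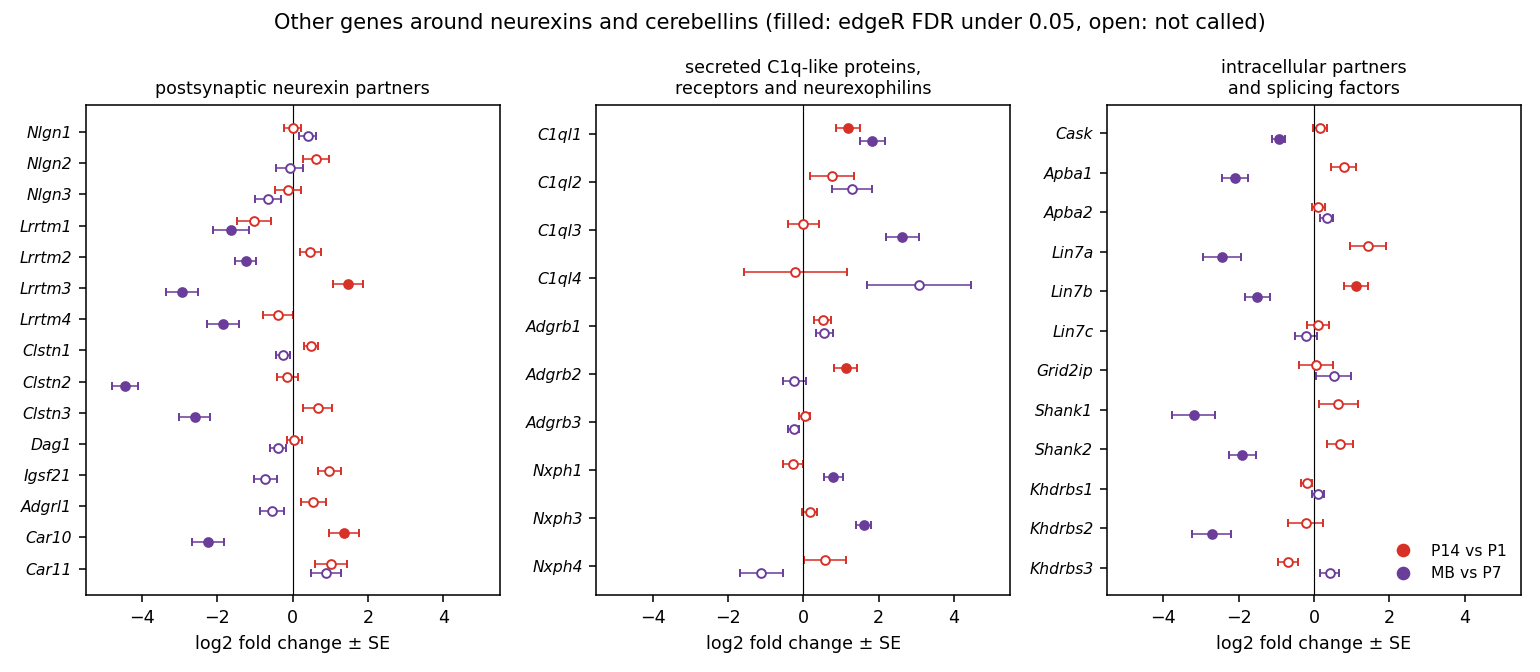
Fitted log2 fold change with its SE for the 37 tested genes of the 3 lists, in P14 against P1 and in MB against P7, with filled points for an edgeR FDR under 0.05. In MB the called points of the first and last lists lie below 0, from Clstn2 at -4.45, and those of the second lie above 0, up to C1ql3 at 2.63.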

How the data were processed

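The authors deposited raw read counts per gene, per transcript start site (TSS) model and per transcript for each library, with no normalization. Trimmomatic, TopHat, StringTie, HTSeq and the build mm9 are named in the submitters' processing notes, and the strand setting is not given in the sources used here. The gene table was used for tests; its 5 summary lines stayed out of library sizes. Records counted in genes made up 39.5% to 55.4% of a library, 14.1% to 29.2% lay in no gene and 22.9% to 44.6% aligned to several places. Symbols were matched by Ensembl ID for 20358 of 21889 genes.

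Counts were filtered with filterByExpr (minimum count 10, total 15), scaled with TMM and fitted with edgeR 4.0.16 (R 4.3.3), 1 mean per group over 15 libraries (10 residual degrees of freedom), after tests on simulated data. The depth of 12597472 to 43443132 counts limits genes at a few counts. Of the libraries, 6 (E15.5 replicates 1 and 3, all P7 and MB replicate 1) and 9 differ in the share of Tsnax reads that the gene table holds. No label states why, and a difference in counting reads shared by overlapping models was taken from this gene alone. P7 against P1 and P14 against P7 cross the sets in every library, so they could not be run within 1 set. Comparisons within 1 such set, run for P1 against E15.5, MB against P7 and MB against P14, were an alternative. So were DESeq2 1.42.0, its size factors, no filter, the other tables, the compared groups alone, a replicate block and leaving out each replicate. The members and lists were chosen with earlier results of these data known. Named beside the members are the 2 genes most like each, with a mean of at least 1 CPM, and the called gene of each list with the largest rise or fall in P14 against P1 and MB against P7; Car10, Adgrb2, Nxph1 and Nxph3 were named after their values were seen. For 2 further genes of the fixed list, values are not reported here.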

Additional observations from a re-analysis of the deposited data

How the results depend on the processing

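Within libraries of 1 counting set, 0 members rose from E15.5 to P1 in place of 1 (with E15.5 replicate 2 alone, assumed to vary like the others), 3 in place of 4 fell in MB against P7 (with MB replicate 1 alone) and 2 in place of 1 were higher in MB than at P14, the second being Grid1 (0.49, edgeR FDR = 0.0230). Those subsets hold fewer libraries. The TSS model table gave 1 fall in place of 2 from E15.5 to P1, and there Nrxn3 at P14 against E15.5 turned from -0.78 to 0.14 (edgeR FDR = 0.724). That table holds the β model of Nrxn3, and the part of that model in these changes was not tested. DESeq2 called 1 rise in P7 against P1 and 1 in P14 against P1 in place of 0. The compared groups alone gave 0 falls in P7 against P1 in place of 1, 3 rises in P14 against P1 in place of 0 and 2 falls in MB against P7 in place of 4, and the 4 ages alone gave 6 calls in place of 5, as DESeq2 did, while the TSS model table gave 4; the cause was not tested. Leaving out 1 replicate gave 1 to 3 falls in P1 against E15.5 (3 without P1 replicate 3, which adds Cbln1), 3 falls in MB against P7 with any of the 6 libraries out, 4 to 5 falls in MB against P14 (4 without MB replicate 3), 4 to 6 calls over the 4 ages, 0 to 1 rises and 0 to 1 falls in P7 against P1, 0 to 1 rises in P14 against P7, and 0 to 3 rises and 0 to 1 falls in P14 against P1. Calls over all genes moved too. In P14 against P1, 554 genes rose in the main fit, and 1919 with the groups alone. Leaving out P1 replicate 3 gave 1479 rises there, and leaving out another library gave 2 to 46. In P7 against P1, 214 rose and 266 fell in the main fit, and 1 and 8 without P1 replicate 2. In P14 against P7, 886 rose in the main fit and 86 without P7 replicate 2. A changed member count is therefore not by itself a result about the members. Falls of Cbln2 and Nrxn3 and the rise of Cbln4 in MB against P7 and P14, the fall of Cbln3 in MB against P14 and the fall of Cbln2 from E15.5 to P1 passed under each of the 14 alternatives run for each.

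Replicate numbers showed no clear pairing of the samples: correlations of same-numbered deviations ran from -0.312 to 0.332 and in no comparison did all 3 exceed 0.1. These values, from 3 libraries per group, cannot exclude a pairing or a shared batch. With the replicate number as a block, the member counts were unchanged (1 and 2 in P1 against E15.5, 0 and 1 in P7 against P1, 1 and 0 in P14 against P7, 0 and 1 in P14 against P1, 1 and 4 in MB against P7, 1 and 5 in MB against P14, rises first, and 5 over the 4 ages), and of the gene values Grid1 in MB against P1 was no longer called (0.75, edgeR FDR = 0.0638). The genes called at P7 against P1 were 214 up and 266 down without the block and 107 and 141 with it. Depth limits Cbln2 in MB, with 4 counts, and Cbln4 at P7 and P14, with 64 and 62.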
